A study of Mus musculus with 18 samples.

Results

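Very low density lipoprotein (VLDL) is the particle in which hepatocytes export triglyceride and cholesterol to the blood. The 10 genes described here encode its structural protein Apob, the exchangeable apolipoproteins Apoa1, Apoa2, Apoa4, Apoa5, Apoc1, Apoc2, Apoc3 and Apoe, and Mttp, the large subunit of the microsomal triglyceride transfer protein that loads lipid onto Apob. They were chosen by gene symbol as a pathway, with no value in the rule but with earlier results of these data known, from 19057 lines of an RPKM table of mouse liver, and 10 of 10 passed the filter on low values that 10507 genes passed (a value of 1 RPKM or more in 3 livers or more). RPKM is a read number scaled to transcript length and to the mapped reads of the library, so levels of different genes can be compared per length.

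In the endoplasmic reticulum the nascent Apob chain receives lipid from the transfer protein, and chains left without lipid are degraded. Each VLDL particle keeps its Apob molecule for life, whereas the A, C and E apolipoproteins move between VLDL, chylomicrons and HDL. Apoc2 and Apoa5 favour hydrolysis of triglyceride by lipoprotein lipase, Apoc1 and Apoc3 slow hydrolysis and uptake, and Apoe is the ligand by which remnants are cleared by the liver.

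The livers came from male ICR mice, an outbred strain, that were 10 weeks old, with 3 livers in each of 6 groups. Con mice ate a regular diet and received saline, and AOS mice were given alginate oligosaccharide at 10 mg/kg, on the regular diet as far as their label shows. HFD mice ate a high fat diet (D12492) with saline, and HFD+AOS mice ate the high fat diet with alginate oligosaccharide at 10 mg/kg. Con-FMT and A10-FMT mice ate the high fat diet and received gut microbiota of control donors or of donors dosed with alginate oligosaccharide at 10 mg/kg, respectively. The donor contents were pooled within each donor group, so the transplants of a group are not independent of each other. Dosing of the AOS and HFD+AOS mice is given by their labels alone.

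The sequences before the RefSeq starts of Apob and Mttp are shown because both genes moved together over the livers, and that of Apoa4 because it varied more than any other member. Of the 10 members, 8 had an entry in the RefSeq promoter table of GRCm38.p6, and Apoc1 and Apoc3 are named only. Each sequence holds the 250 bases before the RefSeq start, 5′ to 3′ on the strand of the gene, with capitals at letters that matched a motif. Apob lies at chr12:7977427-7977676 (plus strand), Mttp at chr3:138143419-138143668 (minus strand) and Apoa4 at chr9:46240594-46240843 (plus strand). These starts differ from the outermost GENCODE start of each gene, from which the gene spans given below are taken, and lie 29 bases downstream of it for Apob, 148 for Apoa4 and 1550 for Mttp, so the Mttp window lies inside the GENCODE span of the gene.
Apob: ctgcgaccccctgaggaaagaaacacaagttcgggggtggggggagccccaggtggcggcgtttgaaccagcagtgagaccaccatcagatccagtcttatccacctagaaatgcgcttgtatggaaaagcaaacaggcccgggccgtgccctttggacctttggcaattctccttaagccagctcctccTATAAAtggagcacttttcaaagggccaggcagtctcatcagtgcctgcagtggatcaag
Mttp: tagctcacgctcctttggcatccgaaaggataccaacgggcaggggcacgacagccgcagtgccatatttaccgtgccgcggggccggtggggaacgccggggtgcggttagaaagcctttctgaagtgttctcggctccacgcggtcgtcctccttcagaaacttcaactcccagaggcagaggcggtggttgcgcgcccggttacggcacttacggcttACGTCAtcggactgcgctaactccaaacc
Apoa4: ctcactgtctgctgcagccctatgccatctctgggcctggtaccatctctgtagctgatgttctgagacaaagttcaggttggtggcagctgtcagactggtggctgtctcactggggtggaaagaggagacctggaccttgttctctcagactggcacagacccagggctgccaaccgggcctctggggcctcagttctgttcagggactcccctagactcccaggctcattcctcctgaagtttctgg
The capitals of Apob are a TATA box (TATAAA), 60 to 55 bases before the RefSeq start, which 12.4% of 32851 promoter windows of this length held. Those of Mttp are a cyclic AMP response element half-site (TGACGT, here on the opposite strand), 29 to 24 bases before the RefSeq start, which 6.47% of the windows held. The window of Apoa4 held none of the motifs searched on both strands, which were these and an HNF4 core (CAAAGTCCA, in 0.384% of the windows), a nuclear receptor half-site (AGGTCA, 14%), a CCAAT box (CCAAT, 33.8%) and a C/EBP palindrome (TTGCGCAA, 0.164%). No printed window held overlapping matches, and a match describes letters, not a binding site.

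In GRCm38, 4 members lie within 43.3 kb of chromosome 9 in the order Apoa1, Apoc3, Apoa4 and Apoa5, from 46228580 to 46271919. Another 3 lie with Apoc4 within 27.6 kb of chromosome 7 in the order Apoc2, Apoc4, Apoc1 and Apoe, from 19671579 to 19699188. Apob lies at chr12:7977648-8016835, Mttp at chr3:138089854-138144968 and Apoa2 at chr1:171225054-171226379. All are protein-coding genes, and the values count whole genes rather than exons or transcript forms.

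The read depth of the libraries is unknown, because the values were RPKM without read numbers. The summed RPKM of a liver went from 692303 to 806937 and the number of genes above 0 from 14512 to 14982. The third Con library lay between the other Con libraries in 98% of the 148 tested genes in which those differed by at least 1 on the log2 scale, and the third AOS library did so in 96.5% of 142 genes. For the 12 libraries of the other groups this share was 58.1% to 76.8%. The third Con library also differed from the mean of the other Con libraries by an SD of 0.0891 over 4202 genes and the third AOS library by 0.107, against 0.240 to 0.329 in those 12 libraries. Among the members, the third Con liver lay between the others for 10 of 10 genes and the third AOS liver for 6 of 10. Called results of members and of partner and regulator genes are therefore followed without both of these libraries. Calls of genes on the marker lists alone were not followed in this way. Hepatocyte markers summed to between 39377 and 60611 RPKM in each liver. Of the enterocyte markers 6 of 7, and of the pancreas markers 5 of 6, were under 1 RPKM in every liver. The remaining ones were Fabp2 and Cela1, and the list sums with them were 36.6 to 112.6 RPKM and 30.6 to 52.9 RPKM. Fabp2, the only enterocyte marker tested, was at log2 0.61 in HFD against Con and was not called. The part of other tissues in the values was not tested.

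The members were among the most abundant transcripts of the liver and together took 5.74% to 9.74% of the summed RPKM of a liver. By mean RPKM over all livers, Apoa2 ranked 6 of 19057 at 19832, Apoe ranked 7 at 15480, Apoa1 ranked 10 at 11278, Apoc1 ranked 13 at 8767 and Apoc3 ranked 22 at 4241. Apoa5 (542 RPKM), Apoa4 (413), Apob (354) and Apoc2 (343) formed a lower tier, and Mttp was lowest at 65.8 RPKM. In this order neighbours such as Apob and Apoc2 were closer than their spread over livers. Apoa4 was the most variable member, with its highest liver 5.14 times its lowest and a within-group SD of 0.44 on the log2 scale, whereas in the other 9 members the highest liver was 1.48 to 1.95 times the lowest and the SD was 0.11 to 0.23. Bulk RNA cannot tell a lower level per hepatocyte from fewer hepatocytes.

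**Figure D1:**
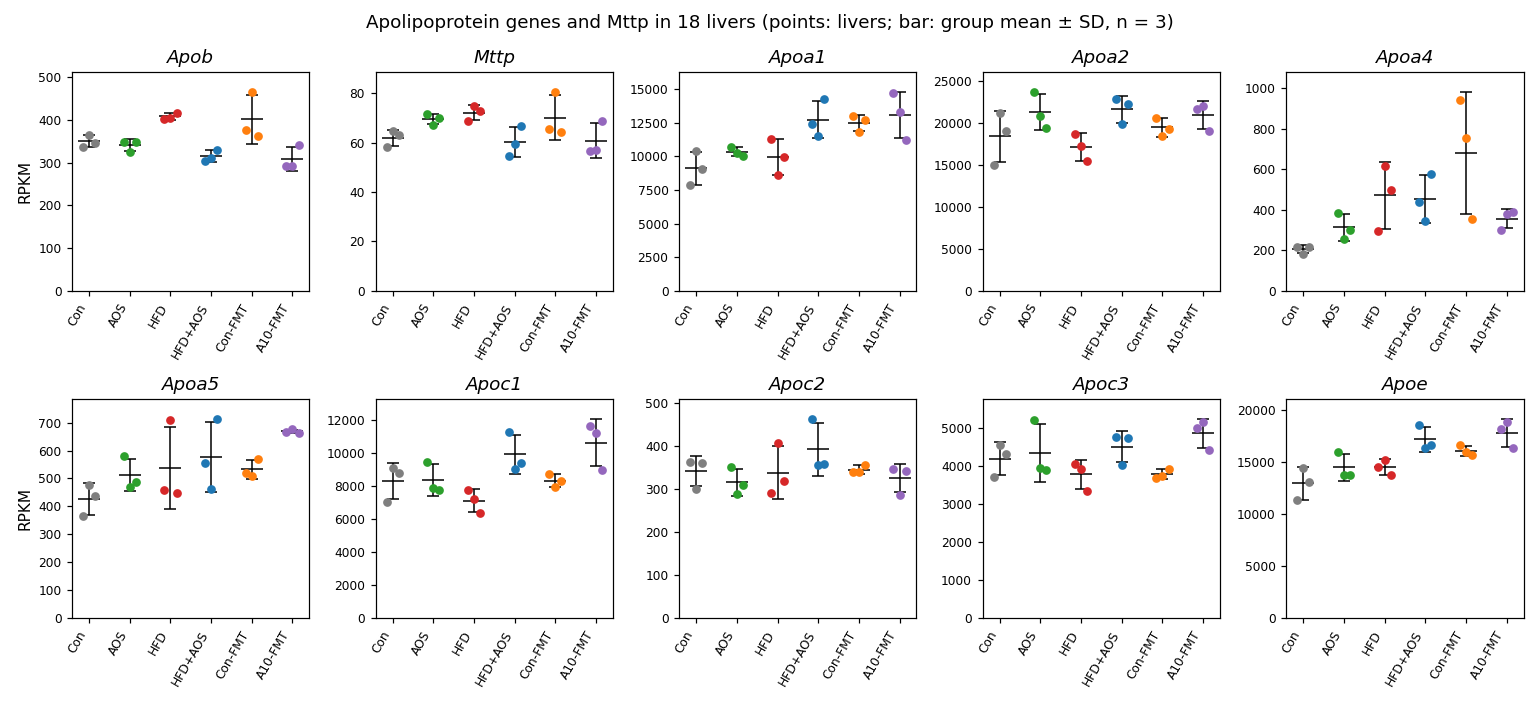
RPKM (y axis, from 0) of the 10 members in each of 18 livers by group (x axis), with points for livers and bars for the group mean ± SD (n = 3). Apob and Mttp sat higher in HFD and Con-FMT than in HFD+AOS and A10-FMT in their means, Apoc1 showed the opposite order, and Apoa4 spread widest.

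Most members did not pass the test in most comparisons. Apob fell and Apoc1 rose in HFD+AOS and again in A10-FMT livers relative to HFD, and no member was called in the other 6 contrasts. In HFD+AOS against HFD, 8.75% of all tested genes were called (4.17% higher and 4.58% lower), beside 2 of 10 members, 1 in each direction. In A10-FMT against HFD it was 6.6% (2.62% higher and 3.98% lower), again beside 2 of 10, 1 in each direction. The share of called genes that were higher in A10-FMT depended on the scaling, at 39.7% as deposited, 56.4% with the library medians set equal and 22.2% with the summed RPKM set equal, and Apob fell and Apoc1 was higher under all 3 of these. With shares of this size and 10 members, the counts carry little information about the members as a group. Both comparisons use the same HFD livers, so the values of one are no repeat of the other.

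Of the contrasts without a called member, HFD against Con called 0.381% of all genes, HFD+AOS against AOS 5.44%, AOS against Con 0.133% and Con-FMT against HFD 0.00952%. The direct comparison of the transplants, A10-FMT against Con-FMT, called 1.68%, and the difference of the AOS effect between the diets called 0.504%. These counts of 0 members are from limma with Benjamini-Hochberg adjustment over 10507 genes. At an unadjusted p under 0.05 the members numbered 3 in HFD against Con, 3 in HFD+AOS against AOS, 0 in AOS against Con and 1 in Con-FMT against HFD, while 15.4%, 20.5%, 15.5% and 6.63% of all genes passed that level. They numbered 4 in A10-FMT against Con-FMT and 3 in the difference between the diets, where 16.4% and 14.7% of all genes passed. HFD+AOS against HFD had 5 members at that level beside 26.2% of all genes, and in A10-FMT against HFD 7 beside 24.5%. Whether the livers of compared groups overlapped is given below as a description only. The share of all genes without overlap was not counted, so such statements lend no weight to a difference that did not pass.

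The median log2 fold change of the 10 members was 0.23 in HFD+AOS against HFD and 0.29 in A10-FMT against HFD, where the median of all genes was -0.01 and -0.03. In HFD against Con it was 0.15, beside 0.05 for all genes. A test of any difference among the 6 groups, which chooses no pair, called Apob (F = 6.33, adjusted p = 0.0239), Apoa4 (F = 6.13, adjusted p = 0.0262) and Apoa1 (F = 5.2, adjusted p = 0.0411) by limma's moderated F test, which called 14.8% of all genes. Leaving out the third Con and AOS livers together left 0 members called by this test, and leaving out the first Con, the third Con, the third HFD, the first HFD+AOS, the second Con-FMT or the second A10-FMT liver left 1 each.

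**Figure D2:**
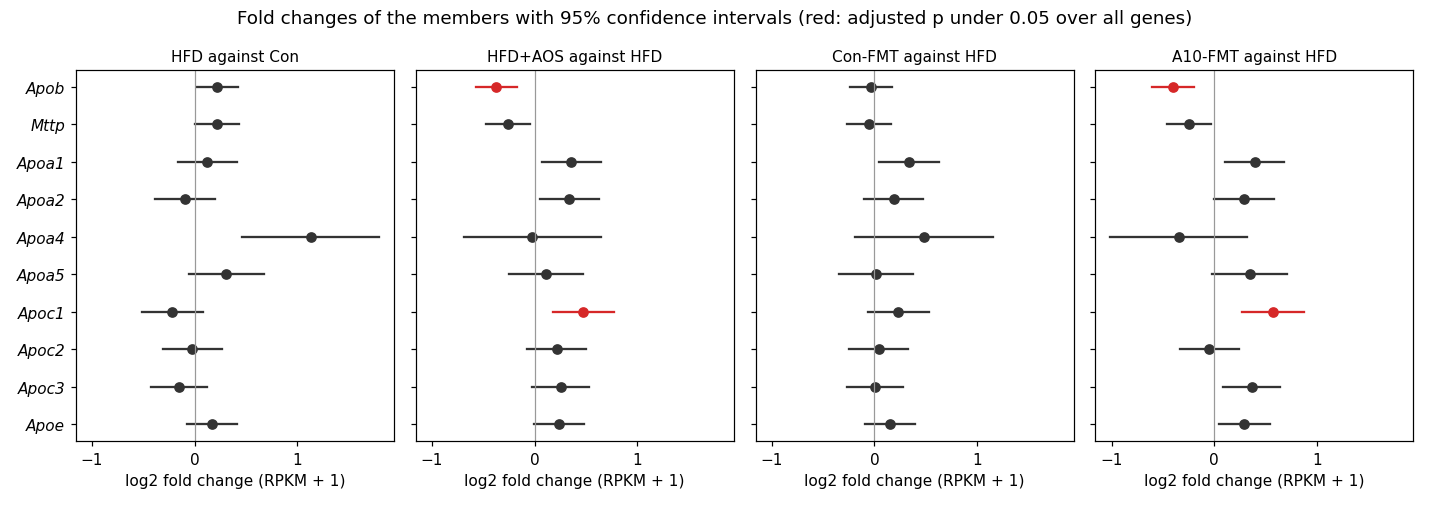
Log2 fold change on the log2(RPKM + 1) scale (x axis) of each member (y axis) in 4 comparisons, with bars for the 95% confidence interval of the limma fit and red for an adjusted p under 0.05 over all genes. Apob is red and left of 0, and Apoc1 red and right of 0, in HFD+AOS and A10-FMT against HFD, and no member is red in the other panels.

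Apob, the protein on which VLDL and LDL are built, was the member with the smallest within-group spread. The high fat diet group had the highest mean, 408 ± 7.81 RPKM (SD, n = 3), with 404, 404 and 417 RPKM in its livers. The Con livers held 338, 365 and 347 RPKM, and every HFD liver was above every Con liver. This difference of 0.22 on the log2 scale (SE 0.09) did not pass the test (adjusted p = 0.275, limma). Livers of HFD+AOS mice held 304, 312 and 330.2 RPKM, all below the HFD livers and below the lowest Con liver. Apob fell by 0.37 on the log2 scale against HFD (SE 0.09, 95% confidence interval -0.57 to -0.17, adjusted p = 0.0253, limma). The range of this adjusted p was 0.0106 to 0.0985 over 28 alternatives, 21 of which kept the call.

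In the transplant groups the Con-FMT livers held 376, 466 and 362 RPKM of Apob, and the second of them was the highest of all 18. Those of A10-FMT held 293, 292 and 342 RPKM, so the groups did not overlap and the first 2 A10-FMT livers were the lowest of all. Against HFD, Apob fell by 0.40 on the log2 scale in A10-FMT (SE 0.09, interval -0.60 to -0.20, adjusted p = 0.0196, limma). Its adjusted p ran from 0.00723 to 0.13 over the alternatives, and 23 of 28 kept the call. Against Con-FMT the difference was -0.37 (SE 0.09, adjusted p = 0.0617), just short of the threshold, and the interval of Con-FMT against HFD was -0.23 to 0.17. Without the third Con and AOS livers the adjusted p against HFD was 0.0552 in HFD+AOS and 0.0476 in A10-FMT. AOS livers on the regular diet held 349, 325 and 349 RPKM, which overlapped with Con, and the AOS effect on the 2 diets differed by -0.34 (SE 0.13, adjusted p = 0.265), which did not pass.

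Mttp, without which Apob receives no lipid, was highest in HFD and Con-FMT and lower in HFD+AOS and A10-FMT in its means, as was Apob, but differed from it in the AOS group. Its livers held 68.7, 74.9 and 72.8 RPKM in HFD and 58.1, 64.6 and 63.0 RPKM in Con, again without overlap. HFD+AOS livers held 54.5, 59.5 and 66.6 RPKM, all below HFD. In A10-FMT they held 56.4, 57.1 and 68.9 RPKM, of which the third reached just above the lowest HFD liver. Mttp did not pass the test in any comparison. On the log2 scale HFD differed from Con by 0.22 (SE 0.10, adjusted p = 0.318), HFD+AOS from HFD by -0.26 (SE 0.10, adjusted p = 0.117) and A10-FMT from HFD by -0.25 (SE 0.10, adjusted p = 0.147), all by limma. The AOS livers on the regular diet held 71.5, 67.2 and 69.8 RPKM, all above Con, which is the opposite order to that on the high fat diet. The difference of the AOS effect between the diets was -0.43 (SE 0.14, adjusted p = 0.189) and did not pass either. Con-FMT livers held 65.3, 80.5 and 64.2 RPKM and overlapped with HFD.

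Apoa1, the main protein of HDL, was lowest in Con and higher in all groups fed the high fat diet with AOS or a transplant. Con livers held 7890.5, 10371 and 9077 RPKM, AOS livers 10715, 10273 and 10022 RPKM and HFD livers 11280.4, 8619 and 9909 RPKM. HFD+AOS livers held 12413, 11540.2 and 14229 RPKM and Con-FMT livers 13002, 11830.0 and 12657 RPKM, and every one of these was above every HFD liver. A10-FMT livers held 14665, 13288 and 11218 RPKM, with the third just below the highest HFD liver. Although the groups differed in the test of all 6, none of the contrasts run passed, and the transplant and HFD+AOS groups were not tested against Con. The log2 fold change against HFD was 0.36 in HFD+AOS (SE 0.14, adjusted p = 0.109), 0.34 in Con-FMT (SE 0.14, adjusted p = 0.691) and 0.39 in A10-FMT (SE 0.14, adjusted p = 0.088). The transplants differed from each other by 0.06 with an interval of -0.23 to 0.35.

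Apoa2, the second protein of HDL and the most abundant member, had a highest liver 1.58 times its lowest. In the members other than Apoa4 this ratio was 1.48 to 1.95. Its means were 18412 ± 3095 RPKM in Con, 21346 ± 2180.4 in AOS, 17139.9 ± 1631 in HFD, 21653 ± 1583 in HFD+AOS, 19492 ± 1088 in Con-FMT and 20951 ± 1673 in A10-FMT (SD, n = 3). HFD had the lowest mean, and its livers (18712, 17252 and 15456 RPKM) lay below those of HFD+AOS (22843, 19857 and 22259 RPKM). The log2 fold change of HFD+AOS against HFD was 0.34 (SE 0.14, adjusted p = 0.127), and that of A10-FMT was 0.29 (SE 0.14, adjusted p = 0.201).

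Apoa4, made by intestine and by fat-laden liver and carried on chylomicrons and HDL, showed the widest range of all members. Con livers held 218, 183 and 214 RPKM, the 3 lowest values of the series. AOS livers held 384, 256 and 298 RPKM and HFD livers 294, 618 and 499 RPKM, and all of them were above all Con livers. HFD+AOS livers held 439, 343 and 576 RPKM. The transplant groups were apart in mean but not in range, with 940.3, 752 and 352 RPKM in Con-FMT and 302, 377 and 387 RPKM in A10-FMT. HFD against Con was the largest difference of any member among the 8 contrasts run, 2.19-fold on the log2(RPKM + 1) scale (log2 1.13, SE 0.32), and it did not pass (adjusted p = 0.124, 0.06 to 0.389 over the alternatives). Nor did AOS against Con at 0.59 (SE 0.32, adjusted p = 0.387) or A10-FMT against Con-FMT at -0.83 (SE 0.32, adjusted p = 0.202), by limma. Without the third Con-FMT liver, whose value was less than the others of its group, the latter was -1.25 (adjusted p = 0.034). This was the only 1 of 28 alternatives in which it passed, and its adjusted p ran from 0.034 to 0.519 over them. HFD+AOS against HFD was -0.02 with an interval of -0.69 to 0.65, and its sign turned when single livers were left out.

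Apoa5, which lowers plasma triglyceride and is made in the liver, was in mean lowest in Con at 427 ± 56.6 RPKM and highest in A10-FMT at 668 ± 6.57 RPKM (SD, n = 3). The A10-FMT livers held 666, 676 and 663 RPKM and lay above every Con, AOS and Con-FMT liver. The second HFD liver and the third HFD+AOS liver were higher still, in groups of 459, 708 and 448 RPKM and 555, 464 and 713 RPKM. Apoa5 passed no test, and A10-FMT gave adjusted p = 0.233 against HFD and 0.353 against Con-FMT (limma).

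Apoc1, an inhibitor of remnant uptake and of lipase, was lowest in HFD and highest in A10-FMT. The HFD livers held 7749, 7228 and 6336 RPKM and the Con livers 7019, 9109 and 8758 RPKM, with overlap. HFD+AOS livers held 11266, 9022 and 9414 RPKM and A10-FMT livers 11650.0, 11208 and 8971 RPKM, and in both groups every liver was above every HFD liver. Against HFD, Apoc1 rose 1.39-fold in HFD+AOS (log2 0.48, SE 0.14, adjusted p = 0.0464) and 1.49-fold in A10-FMT (log2 0.57, SE 0.14, adjusted p = 0.0241), by limma. The Con-FMT livers held 8741, 7907 and 8325 RPKM and the AOS livers 9462, 7891 and 7748 RPKM. A10-FMT against Con-FMT was 0.34 (SE 0.14, adjusted p = 0.237), which did not pass, and the groups did not overlap. The adjusted p for HFD+AOS ran from 0.0315 to 0.206 over the alternatives and only 12 of 28 kept the call, and for A10-FMT it ran from 0.00926 to 0.137 with 21 of 28. Leaving out the third Con and AOS livers gave adjusted p = 0.0806 and 0.0499.

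The calls of both genes rested on few livers. Against HFD, the HFD+AOS calls of Apob and Apoc1 were both lost without the second HFD, the third HFD, the first HFD+AOS or the second HFD+AOS liver. In A10-FMT against HFD, both were lost without the second HFD, the third HFD, the first A10-FMT or the second A10-FMT liver, and without the third A10-FMT liver 4 members were called, Apoa1, Apob, Apoc1 and Mttp. Without that liver the log2 fold change of Apob was -0.48 and that of Apoc1 0.69.

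Apoc3, which restrains lipoprotein lipase and remnant uptake, resembled Apoc1 at a lower level. Its livers held 4059, 3920.3 and 3343 RPKM in HFD, 3687, 3732 and 3927 RPKM in Con-FMT and 4989, 5145 and 4426 RPKM in A10-FMT. All A10-FMT livers were above all HFD and Con-FMT livers. In A10-FMT the log2 difference was 0.36 from HFD (SE 0.13, adjusted p = 0.0969) and 0.36 against Con-FMT (SE 0.13, adjusted p = 0.185), so neither passed, although with the library medians set equal the first did (adjusted p = 0.0401). Con livers held 3708, 4555 and 4313 RPKM, AOS livers 5217, 3933 and 3879.9 RPKM and HFD+AOS livers 4752, 4026 and 4729 RPKM.

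Apoc2, the cofactor of lipoprotein lipase, stood apart from the other C apolipoproteins by its lower level and its lack of the same order. Means were 341 ± 35.2 RPKM in Con, 315 ± 31.9 in AOS, 338 ± 60.4 in HFD, 392 ± 61.1 in HFD+AOS, 345 ± 9.74 in Con-FMT and 325 ± 33.1 in A10-FMT (SD, n = 3). The interval of A10-FMT against HFD was -0.33 to 0.24. Its lowest unadjusted p was in HFD+AOS against AOS, at a log2 fold change of 0.31 (SE 0.14, adjusted p = 0.215), where the first HFD+AOS liver was the highest of the series.

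Apoe, the ligand of remnant receptors, had its lowest mean in Con and its highest in A10-FMT. Con livers held 11312, 14428 and 13066 RPKM and HFD livers 14537, 15214 and 13690.0 RPKM. HFD+AOS livers held 18537, 16283 and 16619 RPKM and A10-FMT livers 18190.3, 18851 and 16308 RPKM, all above every HFD liver. The Con-FMT livers (16578, 15906 and 15669 RPKM) were also above HFD, and AOS livers held 15977, 13726 and 13745 RPKM. A10-FMT against HFD was 0.30 (SE 0.11, adjusted p = 0.128), HFD+AOS against AOS was 0.24 (SE 0.11, adjusted p = 0.242), and the F test over the 6 groups gave adjusted p = 0.0559. Macrophages also make Apoe, and their 9 markers summed to 88 to 215 RPKM in each liver, with ranges of 88 to 205 RPKM in HFD and 98.2 to 121 RPKM in A10-FMT. By their mean log2 values, all 9 were lower in HFD than in Con (median log2 -0.36) and in HFD+AOS than in AOS (-0.40). Against HFD, 7 of 9 were higher in HFD+AOS (median 0.19) and only 2 of 9 in A10-FMT (median -0.08). All 9 were higher in AOS than in Con (0.16), and 0 were called in these contrasts. The part of macrophages in the Apoe values was not tested.

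Apob and Apoc1 moved apart, which was seen in their ratio, a measure chosen after their values were seen and given without a test. Per length, Apoc1 RNA exceeded Apob RNA 19.2, 17.9 and 15.2-fold in the HFD livers and 20.8, 24.9 and 25.2-fold in the Con livers. The ratio was 37.1, 28.9 and 28.5 in HFD+AOS and 39.7, 38.3 and 26.2 in A10-FMT, above every HFD liver. It was 27.1, 24.3 and 22.2 in AOS and 23.2, 17.0 and 23.0 in Con-FMT, where the second liver was as low as HFD. Over the livers Apob and Apoc1 also moved in opposite directions with the transcript length measure given below (r = 0.826 and -0.765). The ratio was taken from RPKM as deposited, without removal of the length trend.

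**Figure D3:**
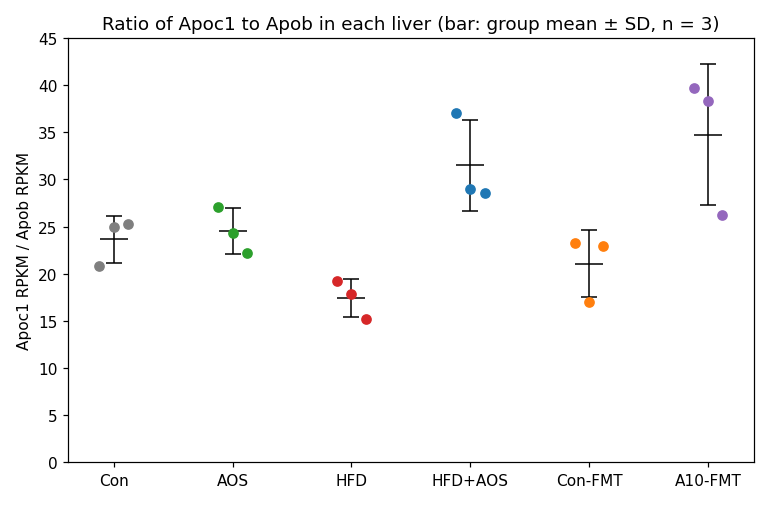
Ratio of Apoc1 RPKM to Apob RPKM (y axis, from 0) in each liver by group (x axis), with bars for the group mean ± SD (n = 3). The HFD livers lie at 15.2 to 19.2, and those of HFD+AOS and A10-FMT at 26.2 to 39.7.

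Over the 18 livers, Apoa1, Apoa2, Apoa5, Apoc1, Apoc3 and Apoe varied together, Apob and Mttp formed a pair of their own, and Apoa4 and Apoc2 followed neither closely. Of 45 pairs, Apoc1 and Apoc3 correlated most (Pearson r = 0.866 on log2 values), followed by Apob and Mttp (r = 0.843), Apoa1 and Apoe (r = 0.843) and Apoa2 and Apoc1 (r = 0.837). Within groups, after removal of the group means, r was 0.92 for Apob and Mttp and 0.914 for Apoa2 and Apoc1, so these pairs also moved together between mice of one group. The lowest were Apob with Apoc1 (r = -0.717, and -0.319 within groups) and Apob with Apoc3 (r = -0.641, and -0.0675 within groups). These are descriptions over 18 livers of 6 groups that share library effects. The 6 pairs within the chromosome 9 cluster ranged from -0.215 to 0.576 and the 3 pairs of the chromosome 7 cluster from 0.187 to 0.787, beside a range of -0.717 to 0.866 over all 45.

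**Figure D4:**
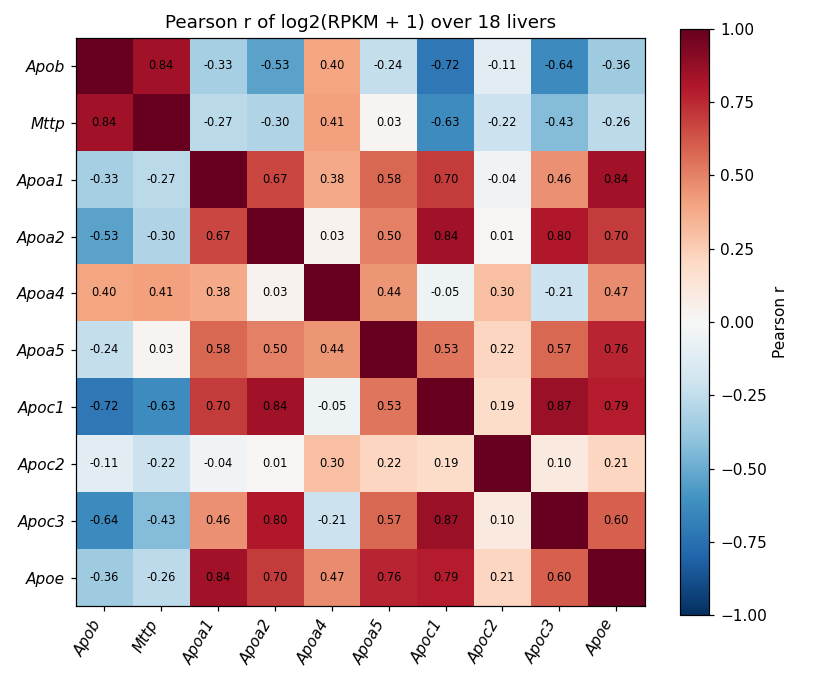
Pearson r of log2(RPKM + 1) over 18 livers for each pair of members (rows and columns), from -1 (blue) to 1 (red). Apob and Mttp form a red pair (0.84) with mostly blue values elsewhere, with -0.72 between Apob and Apoc1.

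Transcript length moved with these results. Apob has the longest transcript of the members with 13934 bases (GC content 43.5%), Mttp has 3963 bases (45.9%), and the other 8 have 518 to 2515 bases (51.9% to 59.5%). Over 10395 genes with a length, the log2 fold change of HFD+AOS against HFD correlated with length at a Spearman rho of -0.197 and that of A10-FMT against HFD at -0.251, a correlation across genes, which are not independent replicates. In A10-FMT against HFD the median log2 fold change was -0.13 for the 501 genes over 8000 bases and 0.10 for the 608 under 1000 bases, and in HFD against Con it was 0.11 and -0.12. Apob fell and Apoc1 rose by more than the median of their length class in both comparisons.

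For each liver, the median log2 deviation of the long transcripts less that of the short ones was 0.049 to 0.232 in HFD and 0.067 to 0.176 in Con-FMT, but -0.114 to -0.0032 in HFD+AOS, -0.190 to 0.042 in A10-FMT, -0.114 to -0.047 in Con and -0.0998 to 0.049 in AOS. Over the 18 livers this measure correlated with Apob at r = 0.826, with Mttp at 0.713, with Apoc1 at -0.765 and with Apoc3 at -0.816. With the length trend of each library removed, an alternative chosen after seeing the data, Apob was at -0.25 in HFD+AOS (adjusted p = 0.0288) and at -0.27 in A10-FMT, each relative to HFD (adjusted p = 0.0267), and Apoc1 at 0.36 (adjusted p = 0.0434) and 0.44 (adjusted p = 0.0204). The calls were therefore kept with smaller differences, and they were also kept with the trend on GC content removed. With the length trend removed the correlation of Apob with Apoc1 was -0.491. Whether RNA quality, library preparation or the tissue itself set the length trend was not tested.

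**Figure D5:**
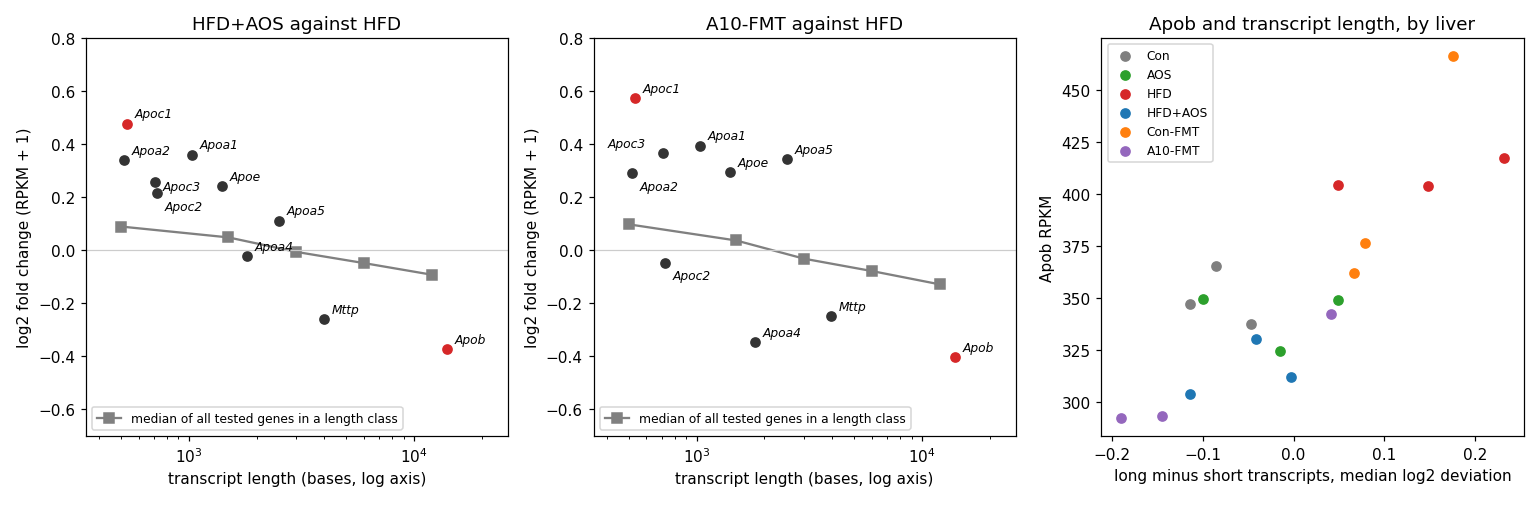
Left and middle: log2 fold change of the members (points, red where called) and the median of all tested genes in 5 length classes (grey squares) against transcript length in bases on a log axis, for HFD+AOS and A10-FMT against HFD. Right: Apob RPKM (y axis, not from 0) of each liver against the median log2 deviation of long less short transcripts (x axis), where Apob rises along the axis (r = 0.826).

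For each of the members that differed over the 6 groups, 3 genes outside the list had the most similar pattern over the 18 livers. For Apob these were Supt6 (r = 0.949), Golga4 (0.943) and Trip11 (0.943). For Apoa1 they were Sirt3 (0.929), Mrps9 (0.914) and Slc2a9 (0.907), and for Apoa4 they were Egln3 (0.884), Tnfaip8l1 (0.854) and Rad51b (0.853).

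Among the partners of the members, the shares of genes called are given beside those over all tested genes. Of 7 other apolipoprotein genes 6 were tested, and 1 was called in 1 contrast. This was Apoc4, the neighbour of Apoc2 on chromosome 7, at 2836, 2869 and 2353 RPKM in A10-FMT and 2037, 2091 and 1841 RPKM in HFD, without overlap (log2 0.43, SE 0.11, adjusted p = 0.0364, limma), so 16.7% of the list was called beside 6.6% of all genes. Of 17 genes of VLDL assembly and secretion, 17 were tested and 1, Dgat2, was called, which is 5.88% in each of 3 contrasts beside 8.75%, 6.6% and 5.44% of all genes, close to the background. Dgat2 makes triglyceride for the particle, and it held 165, 125 and 151 RPKM in HFD, 233, 231 and 248 in HFD+AOS and 234, 275 and 215 in A10-FMT. It rose by 0.70 in HFD+AOS (SE 0.12, adjusted p = 0.00331) and 0.71 in A10-FMT (SE 0.12, adjusted p = 0.00284) against HFD, and by 0.54 in HFD+AOS against AOS (SE 0.12, adjusted p = 0.0183). The median of the 17 was -0.00095 and -0.13 in the comparisons with HFD, against -0.01 and -0.03 for all genes.

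Of 4 genes of Apob mRNA editing, which makes the short form of Apob, 4 were tested and 1 was called once, in HFD+AOS against HFD, where 8.75% of all genes were called. Syncrip, an RNA-binding partner of the editing enzyme, fell by 0.44 in HFD+AOS against HFD (SE 0.11, adjusted p = 0.0203), from 11.8, 11.3 and 14.5 RPKM to 8.18, 9.19 and 9.59 RPKM. RPKM per gene does not separate the edited from the unedited transcript. Of 10 receptors and uptake genes 9 were tested and 1, Lsr, was called in 3 contrasts. This is 11.1% in each of HFD+AOS against HFD, A10-FMT against HFD and HFD+AOS against AOS. Of all genes 8.75%, 6.6% and 5.44% were called there, so 1 gene of 9 carries little information about the list. Lsr, a receptor that takes up triglyceride-rich lipoproteins, held 92.0, 115 and 125 RPKM in HFD, 84.8, 64.9 and 82.5 in HFD+AOS and 82.1, 84.9 and 79.7 in A10-FMT. It fell by 0.51 in HFD+AOS (SE 0.11, adjusted p = 0.0123) and by 0.41 in A10-FMT (SE 0.11, adjusted p = 0.0365) against HFD, and by 0.52 in HFD+AOS against AOS (SE 0.11, adjusted p = 0.0127).

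Of 12 genes of lipolysis and remodelling 11 were in the table and tested, and 2 were called, with 1 called (9.09%) in each of HFD against Con, AOS against Con and HFD+AOS against AOS beside 0.381%, 0.133% and 5.44% of all genes. Angptl4, a secreted inhibitor of lipoprotein lipase, held 17.3, 25.0 and 21.3 RPKM in Con, 39.4, 44.2 and 36.5 RPKM in HFD and 45.1, 46.1 and 45.3 RPKM in AOS, so that it rose by 0.90 in HFD (SE 0.14, adjusted p = 0.024) and by 1.08 in AOS (SE 0.14, adjusted p = 0.0103). The first call was lost without the first Con, the third Con or the second HFD liver and the second without the first Con, the third Con or the third AOS liver. Without the third Con and AOS livers together both were lost (adjusted p = 0.194 and 0.448). Lpl, the lipase itself, fell by 0.91 in HFD+AOS against AOS (SE 0.21, adjusted p = 0.0211), from 9.17, 10.2 and 10.8 RPKM to 4.04, 4.57 and 6.27 RPKM, a call lost without the second AOS, the third AOS, the first HFD+AOS or the second HFD+AOS liver.

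Of 19 transcriptional regulators of apolipoprotein genes 18 were tested. In HFD+AOS against HFD 6 rose and 1 fell (38.9% called, beside 8.75% of all genes), and in A10-FMT against HFD 4 rose and 1 fell (27.8%, beside 6.6%). Ppara, the fatty acid receptor that acts on Apoa1, Apoa5 and Apoc3, held 23.4, 21.3 and 17.2 RPKM in HFD, 39.9, 35.1 and 40.3 in HFD+AOS and 31.5, 29.7 and 33.0 in A10-FMT, and rose by 0.87 and 0.59 (adjusted p = 0.002 and 0.0223, limma). Srebf1, the regulator of fatty acid synthesis, held 42.6, 44.4 and 44.2 RPKM in HFD, 87.3, 83.4 and 79.6 in HFD+AOS and 77.7, 90.4 and 87.6 in A10-FMT, and rose by 0.92 and 0.94 (adjusted p = 0.0136 and 0.0119). Cebpa rose by 0.68 in A10-FMT (adjusted p = 0.0181) and Srebf2, the regulator of cholesterol synthesis, fell there by 0.64 (adjusted p = 0.0129). In HFD+AOS, Nr2f2 rose by 0.47 (adjusted p = 0.0187) and the clock repressor Nr1d1 by 2.86 (adjusted p = 0.0117).

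Nr1d1 held 21.7, 7.35 and 2.12 RPKM in HFD, 70.1, 56.8 and 54.4 RPKM in HFD+AOS and 1.22, 3.68 and 2.72 RPKM in Con, the widest spread of any regulator named. The hour of tissue collection was not in the sources used here, and its part in the levels of the members was not tested. In HFD+AOS against AOS 4 regulators rose and 1 fell (27.8%, beside 5.44% of all genes), led by Nr1h4, the bile acid receptor, at 0.57 (adjusted p = 0.00526) and Ppara at 0.75 (adjusted p = 0.00578), with Mlxipl, the carbohydrate response factor, falling by 0.66 (adjusted p = 0.0179). Between the transplants 1 rose and 1 fell (11.1%, beside 1.68% of all genes). Nr1h4 held 88.7, 96.2 and 72.4 RPKM in A10-FMT and 56.6, 64.3 and 60.7 RPKM in Con-FMT and rose by 0.49 (adjusted p = 0.0285), and Srebf2 fell by 0.58 (adjusted p = 0.0445). The former call was kept in 20 of 28 alternatives and the latter in only 11. Hnf4a, a master regulator of hepatocyte genes that is named here after its values were seen, was called lower in HFD+AOS against HFD, and 10 of 28 alternatives kept that call. In HFD against Con and AOS against Con 0 of 18 were called by limma, with 7 and 4 at an unadjusted p under 0.05.

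Many calls of these partner and regulator genes depended on the third Con and AOS livers. Of 30 calls, 16 were lost when both were left out, among them 6 of 8 in HFD+AOS against AOS, 3 of 10 in HFD+AOS against HFD, 3 of 8 in A10-FMT against HFD and 2 of 2 between the transplants. Without them the adjusted p in HFD+AOS against AOS was 0.119 for Dgat2, 0.0646 for Lsr, 0.126 for Lpl, 0.101 for Mlxipl, 0.117 for Creb3l3 and 0.0767 for Nr2f2, and the calls of Ppara and Nr1h4 were kept (0.0442 each). Against HFD it was 0.0586 for Apoc4, 0.0714 for Lsr and 0.0748 for Nr1h4 in A10-FMT, and 0.0738 for Nr1h4, 0.0528 for Cebpa and 0.0877 for Hnf4a in HFD+AOS. Between the transplants it was 0.071 for Nr1h4 and 0.0988 for Srebf2. The calls of Dgat2, Ppara and Srebf1 against HFD were kept without them in both HFD+AOS and A10-FMT. Over all 28 alternatives, the 30 calls were kept in 10 to 28. Against HFD in HFD+AOS and in A10-FMT, Dgat2 kept its call in 28 and 27, Ppara in 28 and 22, and Srebf1 in 27 and 27. For Lsr it was 26 and 18, for Cebpa 21 and 23, for Nr1h4 17 and 17, and for Apoc4 19 in A10-FMT.

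Markers of other cells were compared in the same contrasts. In HFD+AOS against HFD and in A10-FMT against HFD, 0 of 9 Kupffer cell and macrophage markers, 0 of 8 stellate and endothelial markers and 0 of 7 blood markers were called by limma, with 0, 0 and 1 at an unadjusted p under 0.05 in the former and 0, 2 and 1 in the latter. All 7 blood markers were nevertheless higher in A10-FMT than in HFD by their mean log2 values, with a median log2 fold change of 0.50 beside -0.03 for all genes, and in Con-FMT than in HFD, with a median of 0.41. Among the blood markers in HFD+AOS against AOS, where Dgat2, Lsr, Lpl and the regulators above were called, 3 of 7 were called lower (42.9%, beside 5.44% of all genes). These were the hemoglobin genes Hba-a1, Hbb-b1 and Hbb-b2, which are near-identical to other hemoglobin genes and may share reads, at -1.58, -1.94 and -2.05 on the log2 scale (adjusted p = 0.0222, 0.0206 and 0.0198). In that contrast 4 of the 7 blood markers were higher, and the list median was 0.0034 beside -0.03 for all genes. The list therefore had no common direction there. The calls of Hba-a1, Hbb-b1, Hbb-b2 and Cyp2e1 were not refitted without the third Con and AOS livers. Of 7 hepatocyte markers, Cyp2e1 was called higher in HFD+AOS and A10-FMT than in HFD and Hnf4a lower in HFD+AOS than in HFD, named after their values were seen. These are 28.6% of the list beside 8.75% of all genes in HFD+AOS, and 14.3% beside 6.6% in A10-FMT. In A10-FMT against HFD 4 of the 7 were higher. Alb and Fgb, also chosen after their values were seen, were lower there in mean (28661 against 34702 RPKM and 2296 against 3272 RPKM). The hepatocyte markers summed to 47967 to 59370 RPKM in HFD, 54640 to 60611 RPKM in HFD+AOS, 56382.7 to 58257.5 RPKM in Con-FMT and 47391 to 50245 RPKM in A10-FMT. Blood markers summed to 1273 to 3343 RPKM in HFD, 1070.2 to 1693 RPKM in HFD+AOS, 3104 to 4018 RPKM in AOS and 1642 to 4077 RPKM in A10-FMT. The part of cell composition in the values of the members was not tested.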

How the data were processed

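RNA of 18 livers (6 groups of 3) was sequenced by the authors, who aligned the reads to mouse genes and deposited RPKM values rounded to 2 decimals. The paper names SOAPaligner and the submitters' notes name Bowtie 0.12.2 and mm10, so the aligner is uncertain. The annotation and strand setting are not given in the sources used here, and multiple hits were allowed, so reads of near-identical genes may be shared. The 10 members and the gene lists were chosen with earlier results of these data known.

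Linear models on log2(RPKM + 1) with a mean-variance trend were fitted and moderated by limma (version 3.58.1, R version 4.3.3) and tested two-sided for 10507 genes at 1 RPKM or more in 3 livers or more, with 1 mean per group and Benjamini-Hochberg adjustment over all genes. A call is an adjusted p under 0.05. The published test needs read counts, which were not used here. Fold changes on this scale understate those of low genes. The labels give no litter or cage, so p-values measure the spread between these livers. All groups share 1 estimate of that spread. The third Con and AOS libraries, which lay close to the mean of the others of their group, therefore enter the p-values of every contrast. Whether these libraries are independent of the others was not tested. The fit was tested on simulated data, drawn independently for each gene and liver, with planted changes larger than the called changes of the members. Those data held no library effects such as the length trend, so the simulation cannot speak to them. Lengths came from GENCODE transcripts, with a length for 98.9% of tested genes. All members are named, as well as called list genes, up to 4 per list and contrast by smallest p. Some called regulators beyond these 4 were also named, after their values were seen. They are Cebpa, Nr1h4 and Hnf4a in HFD+AOS against HFD, Nr1h4 in A10-FMT against HFD and Nr2f2 in HFD+AOS against AOS. Alternatives changed the scaling, pseudocount, filter, prior variance, groups fitted, replicate block and livers left out. Length and GC corrections were added after seeing the data.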

Additional observations from a re-analysis of the deposited data

Results flagged for a closer look

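Angptl4, the secreted inhibitor of lipoprotein lipase, was flagged because the effect of AOS differed between the diets. AOS livers held 45.1, 46.1 and 45.3 RPKM and Con livers 17.3, 25.0 and 21.3 RPKM, whereas on the high fat diet HFD+AOS livers held 33.1, 36.5 and 42.2 RPKM and HFD livers 39.4, 44.2 and 36.5 RPKM. The difference of the AOS effects was -1.18 on the log2 scale (SE 0.20, adjusted p = 0.00906, limma interaction term over all genes). It kept its sign in 28 of 28 alternatives and its call in 27, and without the third Con and AOS livers the adjusted p was 0.0953. None of the 10 apolipoprotein and transfer protein genes was flagged for a liver far from its group, since groups of 3 livers were not tested for that.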

How the results depend on the processing

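In 5 contrasts (HFD against Con, HFD+AOS against AOS, AOS against Con, Con-FMT against HFD and the difference between the diets) 0 members were called in any of 28 alternatives. In HFD+AOS against HFD the count of 2 became 0 with the summed RPKM set equal, with only the groups compared and without the third Con and AOS livers together, and 1 (Apob) without the low-value filter. Leaving out single livers gave 0 to 2. In A10-FMT against HFD the count of 2 became 1 (Apob) with the summed RPKM set equal and without the filter, 0 with only the groups compared and 3 with the medians set equal (Apoc3 added), with 0 to 4 for single livers. In A10-FMT against Con-FMT the count of 0 became 1 (Apob) with the medians set equal and with the GC trend removed, with 0 to 2 for single livers (Apoa4 and Apob without the third Con-FMT liver). In the test over the 6 groups the count of 3 became 5 with the medians set equal, without the trend of the prior variance, and with the length or the GC trend removed, 1 without the filter and 0 without the third Con and AOS livers, with 1 to 4 for single livers. It could not be run on only the groups compared. The causes of these changes were not tested.

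Of 32 fold changes of members followed, 1 changed sign, that of Apoa4 in HFD+AOS against HFD, from -0.02 to 0.21, 0.05 and 0.16 without the second HFD, the third HFD and the second HFD+AOS liver (range -0.33 to 0.21). The replicate numbers carry no pairing by the labels, and same-numbered livers did not deviate together (r from -0.177 to 0.225 over 15 pairs of groups, 0 with every r over 0.1). With the replicate block 2 members were called in HFD+AOS against HFD and 2 in A10-FMT against HFD, 0 in the other contrasts and 2 in the test over the 6 groups. Counts over all genes moved more. In A10-FMT against HFD 693 became 1070 with the medians set equal, 78 with only the groups compared, 395 without the third Con and AOS livers and 271 to 1218 for single livers. For HFD+AOS against HFD 919 became 505 with the summed RPKM set equal, 435 with only the groups compared, 496 without the third livers and 320 to 1282 for single livers. For A10-FMT against Con-FMT 177 became 100 without the filter, 4 with only the groups compared, 82 without the third livers and 51 to 564 for single livers, and 27.1% of the called genes were higher as deposited but 44.4% with the medians and 11.9% with the sums set equal. For HFD against Con 40 became 26 without the filter, 2 with only the groups compared, 5 with the block, 20 with the length trend removed, 0 without the third livers and 0 to 178 for single livers, and the share higher went from 77.5% to 51.1% with the medians set equal. For HFD+AOS against AOS 572 became 161 without the third livers and 240 to 688 for single livers, for AOS against Con 14 became 41 with only the groups compared, 9 with the GC trend removed, 0 without the third livers and 0 to 132 for single livers, with 71.4% higher as deposited and 50% with the medians set equal. For the difference between the diets 53 became 137 with only the groups compared, 15 without the third livers and 29 to 186 for single livers, with 28.3% higher as deposited and 47.7% with the medians set equal, and for Con-FMT against HFD 1 became at most 2, or 13 for single livers. For the test over the 6 groups 1550 became 523 without the third livers and 897 to 1854 for single livers. Absolute depth is unknown, so counting error could not be set against these differences.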
